A study of Mus musculus with 15 samples.

Results

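The genes described here are 10 components of the integrated stress response: Atf4, Atf3, Ddit3 (which encodes CHOP), Trib3, Chac1, Asns, Nupr1, Ppp1r15a, Sesn2 and Ddit4. They were chosen by name, and every probe set that the array's annotation assigns to exactly 1 of these symbols was taken, which gave 17 of 45037 probe sets and covered all 10 genes, of 18193 genes named on the array. No probe set named a member together with another gene. The RNA was that of 1 dendritic cell line, established from newborn A/J mouse epidermis, on 15 oligonucleotide arrays, 3 for each of 5 groups. The non-treated cells received none of the compounds, although the series description speaks of a vehicle. DNFB cells received dinitrofluorobenzene, a contact allergen that reacts with proteins. H2O2 cells received hydrogen peroxide. DPI cells received diphenyl iodonium, which blocks flavoenzymes such as NADPH oxidase and with them a source of reactive oxygen species, and DPI + DNFB cells received both compounds. The sources used here give no doses, exposure times or harvest time, so compound, dose and time cannot be told apart. No label ties the arrays to separate cultures. The p-values therefore reflect array-to-array spread alone, and that spread may be technical. In bulk RNA, fewer cells that express a gene and less RNA per cell cannot be told apart.

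In the integrated stress response, kinases that sense unfolded protein, amino acid shortage, heme shortage, oxidative damage or double-stranded RNA phosphorylate the initiation factor eIF2. Protein synthesis then slows in general, while the mRNA of the transcription factor ATF4 is translated better through its upstream reading frames. ATF4 pairs with C/EBP family and other leucine zipper proteins and switches on genes of amino acid supply, redox balance and further stress factors, among them CHOP. Some targets close the loop: the Ppp1r15a product GADD34 brings a phosphatase back to eIF2, and TRIB3 holds ATF4 and CHOP back. Since ATF4 is controlled largely by translation, its mRNA, which is what the arrays measured, is not a measure of its protein.

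ATF4 with a C/EBP partner binds a composite element whose core reads TGATGNAA, while ATF3 and other CREB-type factors bind TGACGTCA. Start-site windows of 300 bases, from 250 before to 50 after each annotated start, were taken from RefSeq (GRCm38.p6) and searched on both strands for these letters and for TGACGNAA, a mixed form. All 10 genes had a window. TGATGNAA was found for 5 of them and in 3.97% of all 32851 windows, TGACGTCA for 1 and in 1.79%, and TGACGNAA for 2 and in 1.59%. The stretches around the matches are printed because they let the genes with and without such letters be set beside their signals, with the matched letters in capitals, 5′ to 3′ on the strand of the gene.
Atf3: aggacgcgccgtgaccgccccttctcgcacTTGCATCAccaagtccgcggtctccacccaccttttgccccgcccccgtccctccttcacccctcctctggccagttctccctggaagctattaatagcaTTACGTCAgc
Chac1: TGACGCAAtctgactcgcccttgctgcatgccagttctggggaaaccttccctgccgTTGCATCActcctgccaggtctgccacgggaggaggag
Nupr1: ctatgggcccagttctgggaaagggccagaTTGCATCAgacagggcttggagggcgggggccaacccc
Asns: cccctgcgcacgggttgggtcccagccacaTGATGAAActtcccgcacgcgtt
Trib3: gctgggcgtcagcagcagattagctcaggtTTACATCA
Ppp1r15a: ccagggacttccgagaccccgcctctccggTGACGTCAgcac
In order, these lie at chr1:191183334-191183473 (- strand), chr2:119350992-119351086 (+ strand), chr7:126625543-126625610 (- strand), chr6:7693210-7693262 (- strand), chr2:152344039-152344076 (- strand) and chr7:45526269-45526310 (- strand). The TGATGNAA match began 110 bases before the start in Atf3 and in Nupr1, 193 before it in Chac1, 23 before it in Asns and at base 15 of the transcript in Trib3. Atf3, Chac1 and Nupr1 carried the same 8 letters, TTGCATCA. In Atf3 a TGACGNAA match lay 10 bases before the start, in Chac1 another lay 250 before it, and the TGACGTCA of Ppp1r15a lay 12 before it. The windows of Atf4, Ddit3, Sesn2 and Ddit4 held none of these letters. A match describes letters and is not a measured binding site.

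Signals are the deposited MAS5 values (a linear brightness per probe set), rescaled so that each array has a 2% trimmed mean of 500, because 6 arrays (replicate 1 of every group and DNFB replicate 3) had been deposited at 250 and the other 9 at 500. Differences are on the scale of log2(signal + 15), so that folds of dim genes are drawn toward 1, and come from 1 limma fit to all 15 arrays with Benjamini-Hochberg adjustment over 12701 genes. A change is called at an adjusted p below 0.05. All 10 genes passed the filter on dim probe sets, which corresponds to a mean signal of 59.6, and each one's non-treated mean was above that too. Precision is limited by the 3 arrays of a group, and the signals carry no call of presence. The ratio of 3′ to 5′ signal of beta-actin, a measure that goes up with RNA breakdown, was 1.504 to 2.29 on the DPI + DNFB arrays and 1.19 to 1.53 on the other 12, and that of Gapdh was 0.952 to 1.27 and 0.814 to 0.922. Of 13 dendritic cell markers 11 had a mean signal over 200, Cd74 and H2-Aa far above it and Zbtb46 (201) and Epcam (222) just above it. Flt3 (69.1) and the Langerhans cell lectin Cd207 (132) were below it, and Cd207 ran from 22.3 to 1088 over the arrays. Of 33 markers of keratinocytes, fibroblasts, melanocytes, T cells and mast cells, 3 had a mean signal over 200: Mitf, Cd2 and Kit. The other 30 had mean signals of at most 173, and none is listed at 0, since the lowest single value was 1.52. The summed signal of the 6 mast cell markers, mostly Kit, was 1855 to 2029 on non-treated arrays, 1174 to 1851 with DNFB, 980.0 to 1186 with H2O2, 927 to 1252 with DPI and 751 to 782 with DPI + DNFB. The sum of the 8 keratinocyte markers was 287 to 522 without treatment, 534 to 684 with DNFB and 414 to 873 with DPI + DNFB, with 479 to 567 for H2O2 and 389 to 579.5 for DPI. The sum of the 5 T cell markers was 805 to 1074 without treatment, 691 to 735 with DNFB, 438 to 615 with H2O2, 434 to 474 with DPI and 702 to 923 with DPI + DNFB. Kit and Cd2 passed as lower with H2O2, DPI and DPI + DNFB, and Mitf with H2O2. Krt5 passed as higher with DNFB and DPI + DNFB, and Trp63 with DPI + DNFB. Of the 13 dendritic cell markers 2, 2, 0 and 1 passed as higher with DNFB, H2O2, DPI and DPI + DNFB. In that order 1, 3, 4 and 4 passed as lower, Csf1r under all 4 treatments. Of all tested genes 24.4%, 28.3%, 31.8% and 33.8% passed. The part of these shifts and of the 3′/5′ ratios in the results was not tested, except where the ratio is named as a covariate.

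**Figure D1:**
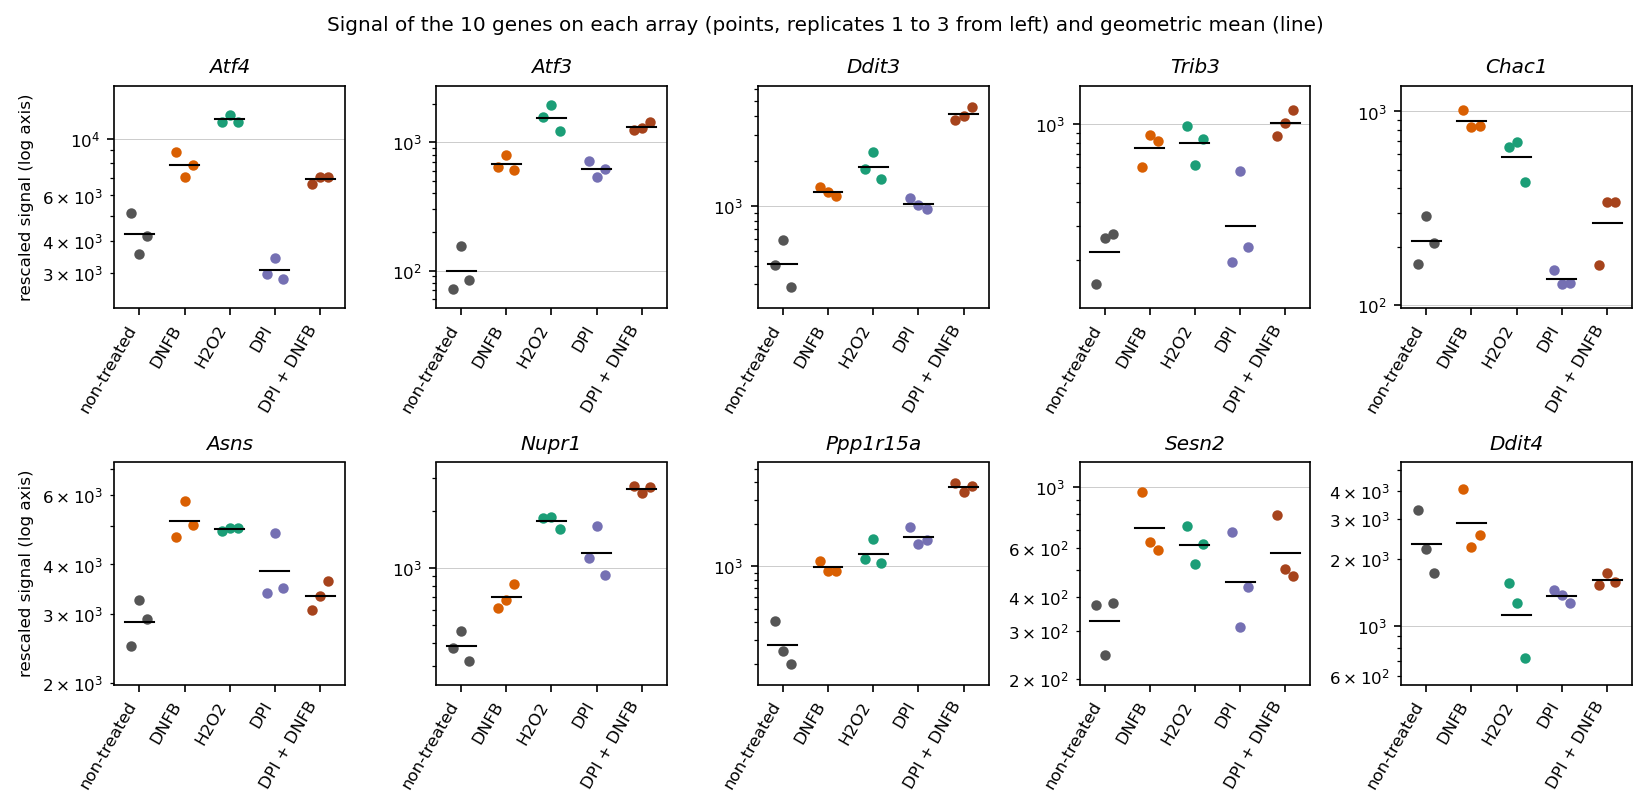
Rescaled signal (log axis) of each of the 10 genes on the 15 arrays, with the 3 arrays of a group as points and their geometric mean as a line. Ddit3, Nupr1 and Ppp1r15a are highest with DPI + DNFB and Atf4 with H2O2. The means of Chac1 and Asns are highest with DNFB, but did not pass there against H2O2.

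Atf4, the central transcription factor, was higher with H2O2, DNFB and DPI + DNFB and lower with DPI. Its signal was 5118, 3544 and 4178 on the non-treated arrays (replicates 1 to 3), 8887, 7058 and 7915 with DNFB and 11586, 12424 and 11661 with H2O2. It was 2968, 3427 and 2819 with DPI and 6679, 7056 and 7095 with DPI + DNFB. Each treated group lay apart from the non-treated arrays with no overlap, above them in 3 groups and below them with DPI. Atf4 rose 2.80-fold with H2O2 (log2 1.49 ± 0.12 SE, adjusted p = 3.38e-08, n = 3 arrays a group here and wherever no arrays are left out) and 1.87-fold with DNFB (log2 0.90 ± 0.12 SE, adjusted p = 1.53e-05). With DPI alone it was 1.38-fold lower (log2 -0.47 ± 0.12 SE, adjusted p = 0.00652), a call that ended without non-treated replicate 1 (log2 -0.33, adjusted p = 0.0516). Adding DNFB to DPI raised it 2.26-fold over DPI (log2 1.18 ± 0.12 SE, adjusted p = 2.76e-06), and DPI + DNFB did not pass against DNFB (log2 -0.19 ± 0.12 SE, adjusted p = 0.225). Against non-treated cells DPI + DNFB was at log2 0.71 ± 0.12 SE, adjusted p = 0.000169. In the order H2O2, DNFB, DPI + DNFB, non-treated, DPI, the only neighbours that did not differ by the test were DNFB and DPI + DNFB. On a second Atf4 probe set, taken like all second probe sets from a fit of the 27022 probe sets that passed the filter, the values were log2 1.37 ± 0.20, adjusted p = 3.95e-05 for H2O2 and -0.48 ± 0.20, adjusted p = 0.0852 for DPI. For DPI + DNFB against DNFB the second probe set gave log2 0.31 ± 0.20, adjusted p = 0.234. The signal of the third did not exceed 48.04 on any array, and it was left out as dim.

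Atf3, a CREB-type factor that is induced by many stresses and acts mostly as a repressor, rose under all 4 treatments. Non-treated arrays had signals of 72.2, 156 and 83.8. DNFB arrays had 641, 802 and 610.4, H2O2 arrays 1565, 1948 and 1231, DPI arrays 714, 537 and 625 and DPI + DNFB arrays 1251, 1288 and 1434. The lowest treated array was thus well above the highest non-treated one. Atf3 rose 6.10-fold with DNFB (log2 2.61 ± 0.22 SE, adjusted p = 3.61e-08) and 13.8-fold with H2O2 (log2 3.78 ± 0.22 SE, adjusted p = 2.57e-10). The rise was 5.59-fold with DPI (log2 2.48 ± 0.22 SE, adjusted p = 7.24e-08) and 11.7-fold with DPI + DNFB (log2 3.55 ± 0.22 SE, adjusted p = 6.19e-10). The levels formed an upper pair, H2O2 and DPI + DNFB, that did not pass against each other (log2 difference of DPI + DNFB from H2O2 -0.23 ± 0.22 SE, adjusted p = 0.422). A lower pair, DNFB and DPI, did not pass either (log2 difference of DNFB from DPI 0.13 ± 0.22 SE, adjusted p = 0.697), and the step between the pairs did (DPI + DNFB over DNFB, log2 0.95 ± 0.22 SE, adjusted p = 0.00142).

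Ddit3 encodes CHOP, a leucine zipper factor that dimerises with C/EBP proteins and is linked to cell death in prolonged stress. Its signal was 406, 596 and 287 without treatment, 1331, 1235 and 1159 with DNFB and 1765, 2286 and 1524 with H2O2. With DPI it was 1124, 1014 and 959, and with DPI + DNFB it was 3779.8, 3976 and 4592. All treated arrays exceeded all non-treated ones, and the 3 DPI + DNFB arrays exceeded every other array of the series. Ddit3 rose 2.45-fold with DPI (log2 1.29 ± 0.19 SE, adjusted p = 3.25e-05), 2.94-fold with DNFB (log2 1.56 ± 0.19 SE, adjusted p = 4.44e-06), 4.33-fold with H2O2 (log2 2.11 ± 0.19 SE, adjusted p = 9.34e-08) and 9.65-fold with DPI + DNFB (log2 3.27 ± 0.19 SE, adjusted p = 3.81e-10). DNFB added to DPI gave a 3.94-fold rise over DPI (log2 1.98 ± 0.19 SE, adjusted p = 1.79e-06). H2O2 and DNFB did not pass against each other (log2 -0.56 ± 0.19 SE, adjusted p = 0.0543 for DNFB minus H2O2), nor did DNFB and DPI. The former difference passed under 10 alternatives, among them without non-treated replicate 2 (log2 -0.56, adjusted p = 0.0201), without non-treated replicate 3 (log2 -0.56, adjusted p = 0.0221) and without H2O2 replicate 3 (log2 -0.69, adjusted p = 0.0403). The second Ddit3 probe set rose in the same comparisons, with log2 3.51 ± 0.38, adjusted p = 1.81e-06 for DPI + DNFB and 1.16 ± 0.38, adjusted p = 0.0395 for DNFB.

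Nupr1, a small stress-induced nuclear protein that works with ATF4, was at 376, 463 and 321 on non-treated arrays and at 616, 678 and 822 with DNFB. It was at 1833, 1869 and 1600.0 with H2O2, 1126, 1667 and 916 with DPI and 2717, 2489 and 2687 with DPI + DNFB. The groups lay apart except that the highest DPI array was above the lowest H2O2 array. All 4 neighbouring steps in the order DPI + DNFB, H2O2, DPI, DNFB, non-treated passed, the only gene of the 10 for which they did. It rose 6.66-fold with DPI + DNFB (log2 2.73 ± 0.18 SE, adjusted p = 1.47e-09), 4.48-fold with H2O2 (log2 2.16 ± 0.18 SE, adjusted p = 3.53e-08), 3.05-fold with DPI (log2 1.61 ± 0.18 SE, adjusted p = 1.26e-06) and 1.80-fold with DNFB (log2 0.85 ± 0.18 SE, adjusted p = 0.00138). The second probe set gave log2 3.28 ± 0.19, adjusted p = 6.97e-10 for DPI + DNFB, 1.84 ± 0.19, adjusted p = 6.60e-07 for DPI and 1.01 ± 0.19, adjusted p = 0.000595 for DNFB, but the step from DPI to H2O2 did not pass there (log2 0.33 ± 0.19, adjusted p = 0.209).

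Among the genes of negative feedback, Ppp1r15a (GADD34) rose under every treatment and most with DPI + DNFB. Non-treated arrays had signals of 409, 249 and 199.7, DNFB arrays 1093, 929 and 935 and H2O2 arrays 1138, 1561 and 1063. DPI arrays had 1924, 1452 and 1532 and DPI + DNFB arrays 3966, 3382 and 3783. H2O2 arrays overlapped both DNFB and DPI arrays, while DPI + DNFB stood above every other array. The rise was 5.68-fold with DPI (log2 2.51 ± 0.20 SE, adjusted p = 1.80e-08), 4.34-fold with H2O2 (log2 2.12 ± 0.20 SE, adjusted p = 1.42e-07), 3.46-fold with DNFB (log2 1.79 ± 0.20 SE, adjusted p = 1.30e-06) and 12.9-fold with DPI + DNFB (log2 3.69 ± 0.20 SE, adjusted p = 2.14e-10). DPI over H2O2 did not pass (log2 for H2O2 minus DPI -0.39 ± 0.20 SE, adjusted p = 0.142).

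Trib3, a pseudokinase that binds ATF4 and the kinase AKT, rose with DNFB, H2O2 and DPI + DNFB and did not pass with DPI. Its signal was 151, 259 and 272 without treatment, 602, 875 and 824 with DNFB and 983, 619 and 838 with H2O2. It was 196, 576 and 235 with DPI and 868, 1009 and 1181 with DPI + DNFB. DPI replicate 2 lay far above the other DPI arrays, the others lying within the range of the non-treated arrays. The log2 changes were 1.71 ± 0.30, 1.79 ± 0.30 and 2.12 ± 0.30 for DNFB, H2O2 and DPI + DNFB (adjusted p = 0.000234, 0.000136 and 2.20e-05). For DPI the log2 change was 0.42 ± 0.30 SE, adjusted p = 0.327. DPI + DNFB was 3.26-fold above DPI (log2 1.71 ± 0.30 SE, adjusted p = 0.000348). The second probe set gave log2 0.13 ± 0.18, adjusted p = 0.655 for DPI and 1.39 ± 0.18, adjusted p = 3.74e-05 for DPI + DNFB over DPI.

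Chac1, an enzyme that breaks down glutathione, rose with DNFB and H2O2 but did not pass against non-treated cells where DPI was present. Non-treated arrays had 162, 289 and 209, DNFB arrays 1018, 832 and 844 and H2O2 arrays 652, 698 and 433. DPI arrays had 151, 128 and 129 and DPI + DNFB arrays 160.0, 340.1 and 341. DNFB arrays were above all others, and the DPI + DNFB arrays overlapped the non-treated ones. Chac1 rose 3.96-fold with DNFB (log2 1.99 ± 0.27 SE, adjusted p = 1.30e-05) and 2.60-fold with H2O2 (log2 1.38 ± 0.27 SE, adjusted p = 0.000567), and DPI + DNFB was 3.24-fold below DNFB (log2 -1.70 ± 0.27 SE, adjusted p = 3.43e-05). DPI + DNFB against non-treated was log2 0.29 ± 0.27 SE, adjusted p = 0.433. DPI alone gave log2 -0.61 ± 0.27 SE, adjusted p = 0.0934, which passed without non-treated replicate 1 (log2 -0.79, adjusted p = 0.047) and without DPI + DNFB replicate 1 (log2 -0.61, adjusted p = 0.0393). DPI + DNFB over DPI was log2 0.90 ± 0.27 SE, adjusted p = 0.0165. That call ended without DPI replicate 3 (log2 0.86, adjusted p = 0.0515), without DPI + DNFB replicate 2 (log2 0.73, adjusted p = 0.0678) and without DPI + DNFB replicate 3 (log2 0.73, adjusted p = 0.0863). It also ended within the arrays deposited at 250 (log2 0.08, adjusted p = 0.907).

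Asns, asparagine synthetase, is a classic ATF4 target of amino acid shortage. Its signal was 2487, 3258 and 2904 without treatment, 4707, 5792 and 5042 with DNFB and 4873, 4959 and 4949 with H2O2. With DPI it was 3389, 4809.6 and 3491, and with DPI + DNFB 3071, 3329 and 3637. DNFB and H2O2 arrays lay above the non-treated ones, by log2 0.85 ± 0.13 and 0.78 ± 0.13 (adjusted p = 7.11e-05 and 0.000156). DPI + DNFB did not pass against non-treated (log2 0.22 ± 0.13 SE, adjusted p = 0.215) and was 1.54-fold below DNFB (log2 -0.63 ± 0.13 SE, adjusted p = 0.000655). The rise with DPI (log2 0.42 ± 0.13 SE, adjusted p = 0.0188) ended without non-treated replicate 1 (log2 0.32, adjusted p = 0.103) and without DPI replicate 2 (log2 0.26, adjusted p = 0.137). Its probe sets disagreed. On the second, H2O2 passed (log2 0.62 ± 0.13, adjusted p = 0.00135), DNFB did not (log2 0.33 ± 0.13, adjusted p = 0.0797), and DPI + DNFB against DNFB was log2 -0.003 ± 0.13, adjusted p = 0.987. Nor did DPI pass there (log2 0.18 ± 0.13, adjusted p = 0.358).

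Sesn2 and Ddit4 encode brakes on the growth kinase mTORC1, the former as a leucine sensor and the latter through the TSC complex. Sesn2 signals were 373, 246 and 379 without treatment, 956, 633 and 592 with DNFB and 719, 526 and 622 with H2O2. They were 684, 309 and 433 with DPI and 794, 505 and 475 with DPI + DNFB. Replicate 1 was the highest array in each treated group, and DPI arrays overlapped the non-treated ones (log2 0.45 ± 0.26 SE, adjusted p = 0.22). Sesn2 rose 2.12-fold with DNFB (log2 1.09 ± 0.26 SE, adjusted p = 0.00432) and 1.85-fold with H2O2 (log2 0.89 ± 0.26 SE, adjusted p = 0.0154), and no neighbouring groups in its order differed. The H2O2 call ended without non-treated replicate 2 (log2 0.69, adjusted p = 0.0884) or H2O2 replicate 1 (log2 0.78, adjusted p = 0.0635). That for DPI + DNFB (log2 0.79 ± 0.26 SE, adjusted p = 0.026) ended without non-treated replicate 2 (log2 0.60, adjusted p = 0.133) or DPI + DNFB replicate 1 (log2 0.56, adjusted p = 0.143). The second Sesn2 probe set did not pass in any comparison with non-treated cells, with log2 0.62 ± 0.24, adjusted p = 0.0918 for DNFB.

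Ddit4 was the 1 gene of the 10 that was lower with H2O2. Signals were 3290.1, 2211 and 1733 on non-treated arrays, 4114, 2269.8 and 2548 with DNFB and 1558, 1273 and 719 with H2O2. They were 1445, 1375 and 1264 with DPI and 1528, 1727 and 1581 with DPI + DNFB. All H2O2, DPI and DPI + DNFB arrays lay below all non-treated arrays, while DNFB arrays overlapped them (log2 0.30 ± 0.25 SE, adjusted p = 0.435). Ddit4 was 2.05-fold lower with H2O2 (log2 -1.04 ± 0.25 SE, adjusted p = 0.00327) and 1.71-fold lower with DPI (log2 -0.77 ± 0.25 SE, adjusted p = 0.0216). The DPI call ended without non-treated replicate 1 (log2 -0.52, adjusted p = 0.137) or DPI replicate 3 (log2 -0.72, adjusted p = 0.0707). DPI + DNFB did not pass against non-treated (log2 -0.53 ± 0.25 SE, adjusted p = 0.107), but did without non-treated replicate 3 (log2 -0.74, adjusted p = 0.0409). It was 1.78-fold below DNFB (log2 -0.83 ± 0.25 SE, adjusted p = 0.00966), a call that ended without DNFB replicate 1 (log2 -0.57, adjusted p = 0.0757).

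**Figure D2:**
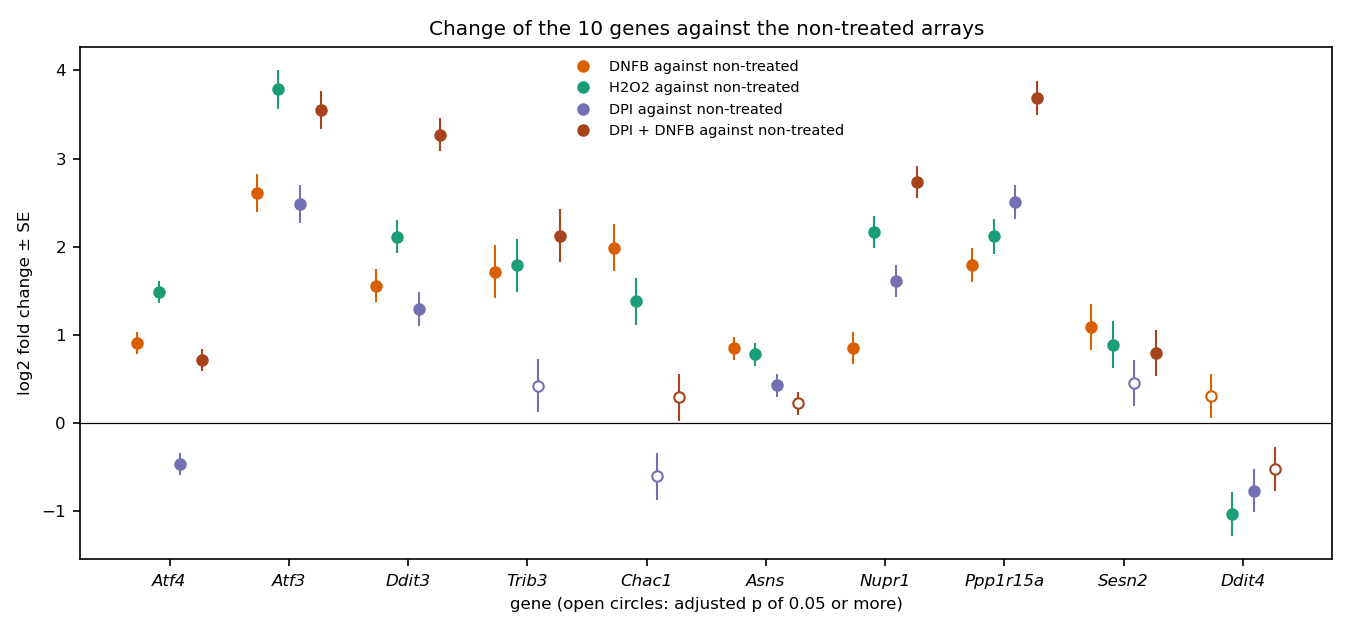
Log2 fold change (y axis, with the SE of the fit) of each gene against the non-treated arrays under the 4 treatments, 3 arrays a group. Filled circles passed at an adjusted p below 0.05. Atf4, Ddit4 and Chac1, the last without passing, lie below 0 with DPI, where Atf3, Ddit3, Nupr1 and Ppp1r15a lie between 1.29 and 2.51.

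Read by treatment, the genes rose together with the allergen and the oxidant. With DNFB 9 of 10 rose and Ddit4 did not pass, where 24.4% of all tested genes passed (1337 higher and 1768 lower). With H2O2 9 rose and Ddit4 fell, where 28.3% of all tested genes passed (1380 higher and 2211 lower). The median log2 change of the 10 genes was 1.32 with DNFB and 1.64 with H2O2, beside -0.06 over all genes in each comparison. Among 12701 genes ranked from the largest rise, Atf3 was number 34 with DNFB and 6 with H2O2, and Chac1 was number 83 and 226. These and all comparisons with non-treated cells use the same 3 control arrays. Among the arrays deposited at 500, 7 passed with DNFB, without Nupr1 (log2 0.79, adjusted p = 0.135) and Sesn2 (log2 1.01, adjusted p = 0.0577), and 10 with H2O2, beside 1349 and 2470 of all 12701 genes. Among those deposited at 250, 9 and 9 passed, beside 2124 and 1784. The 250 set has 1 array for every group but DNFB, so the spread within groups is known there from the DNFB arrays alone. The 500 set has 1 DNFB array. A lone array is taken in each set to vary like the others. Wherever these sets are named, their counts and p-values are thus a weak check. With the deposited target as a block the counts were 9 and 10. Over the 10 orders of levels, 16 of 40 neighbouring pairs of groups passed. H2O2 against DPI, DNFB against DPI and DPI + DNFB against H2O2, which enter only there, had 33.8%, 37.5% and 41.0% of all genes passing.

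DNFB against H2O2 compares the allergen with the oxidant directly. Atf3, Atf4 and Nupr1 were lower with DNFB (log2 -1.18 ± 0.22, -0.58 ± 0.12 and -1.31 ± 0.18, adjusted p = 0.00109, 0.00303 and 6.14e-05). Ddit4 was higher, by log2 1.34 ± 0.25 SE, adjusted p = 0.00103, and was number 113 from the top of 12701 genes. The other 6 did not pass. For Chac1 the difference was log2 0.61 ± 0.27 SE, adjusted p = 0.143, and for Trib3 -0.08 ± 0.30 SE, adjusted p = 0.911. So 4 of 10 passed, where 14.7% of all tested genes passed (1111 higher and 762 lower). Genes that were higher made up 59.3% of those that passed, and 72.2% with arrays centred on the median. In the 500 set alone 3 of the genes passed beside 353 of all, without Atf3 (log2 -0.94, adjusted p = 0.157), and in the 250 set 3 passed beside 719, without Atf4 (log2 -0.47, adjusted p = 0.0915).

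DPI alone split the 10 genes. Atf3, Ddit3, Nupr1, Ppp1r15a and Asns rose, Atf4 and Ddit4 fell, and Trib3, Chac1 and Sesn2 did not pass. That made 7 of 10, where 31.8% of all tested genes passed (1694 higher and 2341 lower). Neither the rise of Asns nor the fall of Atf4 passed on a second probe set of the gene. Ppp1r15a was number 26 and Atf3 number 29 among 12701 genes ranked from the largest rise, while Atf4 was number 9923 and Chac1 number 10655. The median log2 change of the 10 genes was 0.44, with single values from -0.77 to 2.51. Without non-treated replicate 1 the changes of Atf4, Ddit4 and Asns no longer passed, as given above, and 5 of the genes passed in the 500 set (beside 2558 of all genes) and 6 in the 250 set (beside 2326).

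DPI + DNFB gave the highest Ddit3, Nupr1 and Ppp1r15a signals of the series. Against non-treated cells 7 genes rose and none fell, with Asns, Chac1 and Ddit4 not passing, where 33.8% of all tested genes passed (1910 higher and 2381 lower). Genes that were higher made up 44.5% of those that passed, and 17.9% with arrays centred on the median, which moved the median of all genes by -0.27 on the log2 scale and after which 6 of the 10 rose and Ddit4 fell. In the ranking by rise, Ppp1r15a was number 12, Atf3 14, Ddit3 17 and Nupr1 27 of 12701 genes. With DPI + DNFB replicate 2, the array of the group with the lowest beta-actin ratio, as its only array, 6 genes passed and Sesn2 did not (log2 0.61, adjusted p = 0.287). In the 500 set 6 passed beside 2884 of all genes, and in the 250 set 7 did beside 2621, where Atf4 was at log2 0.38, adjusted p = 0.137.

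The effect of DPI on cells that also received DNFB again ran in both directions. Against DNFB alone, DPI + DNFB had higher Nupr1, Ppp1r15a, Ddit3 and Atf3 and lower Chac1, Ddit4 and Asns. The log2 differences were 1.89 ± 0.18 for Nupr1, 1.90 ± 0.20 for Ppp1r15a and 1.71 ± 0.19 for Ddit3 (adjusted p = 8.62e-08, 2.50e-07 and 5.76e-07). Thus 7 of 10 passed, where 44.2% of all tested genes passed (2911 higher and 2706 lower). Genes that were higher made up 51.8% of those that passed, and 27.9% with arrays centred on the median, under which Atf4 was lower as well (log2 -0.50, adjusted p = 0.0109). Its second probe set, without that centring, lay above 0 and did not pass (log2 0.31 ± 0.20, adjusted p = 0.234). With the beta-actin ratio as a covariate 5 of the genes passed beside 2904 of all, and Atf3 (log2 0.77, adjusted p = 0.113) and Ddit4 (log2 -0.48, adjusted p = 0.4) did not. In the 500 set the number was 5 beside 3476 of all genes, and in the 250 set 7 beside 4701.

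The effect of DNFB could also be read in cells that had DPI. Against DPI alone, 7 genes rose with DPI + DNFB and none fell, led by Ddit3, number 23 in the ranking by rise of 12701 genes, and Trib3, number 55. Beside these 7 of 10, 27.8% of all tested genes passed (1785 higher and 1745 lower). Genes that were higher made up 50.6% of those that passed, and 16.8% with arrays centred on the median, under which Asns fell (log2 -0.49, adjusted p = 0.028) and Chac1 did not pass. With the beta-actin ratio as a covariate 4 of the genes passed beside 542 of all, and Atf3 (log2 0.87, adjusted p = 0.19) and Ppp1r15a (log2 1.05, adjusted p = 0.0794) were among those that did not. In the 500 set 7 passed beside 2225 of all genes, and in the 250 set 5 beside 1438, without Atf3 (log2 0.80, adjusted p = 0.0629) and Chac1.

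Whether the effect of DNFB differed with and without DPI was tested by the interaction, the effect with DPI minus the effect without it. Being on the log2 scale, the interaction compares folds and not added signal. On the probe sets that stand for the genes, it passed for Atf3, Asns and Chac1, all below 0, where 31.1% of all tested genes passed (2195 higher and 1750 lower). Genes that were higher made up 55.6% of those that passed, and 29.1% with arrays centred on the median, when 5 of the 10 genes passed, all below 0. Atf4 did not pass (log2 0.28 ± 0.17 SE, adjusted p = 0.252), but its second probe set did, above 0 (log2 0.78 ± 0.28, adjusted p = 0.046), as did the mean of its probe sets (log2 0.53, adjusted p = 0.0372). For Atf3 the effect of DNFB was log2 2.61 without DPI and 1.07 with it (interaction log2 -1.54 ± 0.31 SE, adjusted p = 0.000741). For Asns it was 0.85 and -0.20 (interaction log2 -1.05 ± 0.19 SE, adjusted p = 0.000247), while the second Asns probe set gave an interaction of log2 -0.18 ± 0.18, adjusted p = 0.531. For Chac1 it was 1.99 and 0.90 (interaction log2 -1.09 ± 0.38 SE, adjusted p = 0.0333). The Chac1 interaction no longer passed in 6 of the 15 fits with an array left out: without non-treated replicate 1 (log2 -0.90, adjusted p = 0.0924), non-treated replicate 3 (log2 -1.07, adjusted p = 0.0598), DNFB replicate 1 (log2 -0.997, adjusted p = 0.0796), DNFB replicate 3 (log2 -1.13, adjusted p = 0.0517), DPI replicate 1 (log2 -1.02, adjusted p = 0.0658) and DPI + DNFB replicate 1 (log2 -0.75, adjusted p = 0.0951). Ppp1r15a passed without non-treated replicate 1 (log2 -0.89, adjusted p = 0.00716), Ddit3 without non-treated replicate 3 (log2 0.67, adjusted p = 0.0401) and Sesn2 without DPI replicate 2 (log2 -1.01, adjusted p = 0.0441). For Trib3 the DNFB effects were 1.71 and 1.71, with an interaction of log2 -0.01 ± 0.42 SE, adjusted p = 0.991. In the 500 set the interaction passed for 2 genes beside 2265 of all, without Chac1 (log2 -0.39, adjusted p = 0.602), and in the 250 set for 3 beside 2264.

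**Figure D3:**
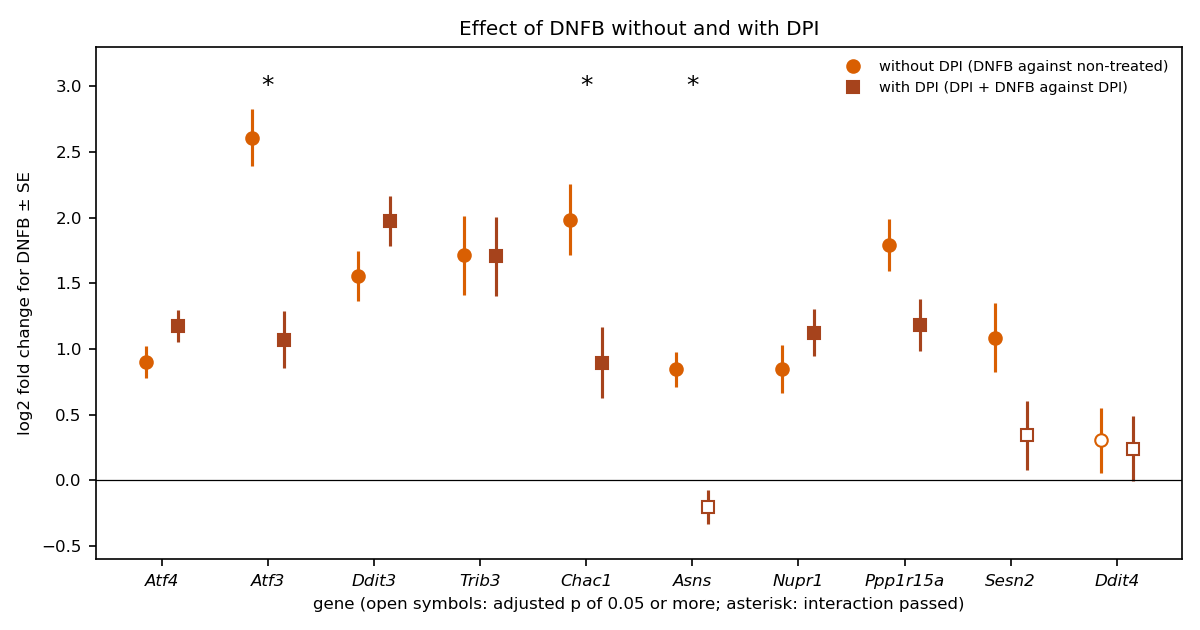
Log2 fold change for DNFB (y axis, with the SE of the fit) in cells without DPI (circles) and with DPI (squares), 3 arrays a group. Asterisks mark the genes whose interaction passed, Atf3, Chac1 and Asns, where the value with DPI lies below the value without it.

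Other genes of the pathway, from lists that hold none of the 10, are given by counts to be read against the 24.4%, 28.3%, 31.8% and 33.8% of all tested genes that passed with DNFB, H2O2, DPI and DPI + DNFB. Among kinases and other machinery of eIF2, 12 tested, 1 rose and 2 fell with DNFB, 1 and 3 with H2O2, 3 and 1 with DPI, and 2 and 3 with DPI + DNFB. That is 3, 4, 4 and 5 of 12, near those shares of all genes. Their median log2 change was -0.17, -0.13, 0.01 and -0.21 in that order, against -0.06, -0.06, -0.007 and 0.02 over all genes. The ER stress kinase gene Eif2ak3 (PERK) fell with H2O2 (log2 -0.89 ± 0.13 SE, as for all genes named from the lists, each of which passed) and rose with DPI (log2 0.74 ± 0.13). Ppp1r15b, the constitutive partner of the eIF2 phosphatase, rose with DNFB (log2 0.52 ± 0.10) and H2O2 (log2 0.77 ± 0.10), and was lower with DPI + DNFB than with DNFB (log2 -1.01 ± 0.10). Of 23 leucine zipper partners, 14 rose with DNFB, 11 with H2O2, 6 with DPI and 7 with DPI + DNFB, while 3, 2, 6 and 4 fell (median log2 change 0.61, 0.69, 0.07 and 0.27). Maff, a small MAF protein, rose under all 4 (log2 2.29 ± 0.14, 3.07 ± 0.14, 2.15 ± 0.14 and 2.78 ± 0.14 in that order), and Xbp1, the splicing-controlled factor of the unfolded protein response, fell with DPI (log2 -1.67 ± 0.17).

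Known ATF4 targets of amino acid supply were listed by branch, and the branches were not tested against each other. Of 12 genes of serine, one-carbon and transsulfuration metabolism 4 rose and 4 fell with DNFB, 3 and 1 with H2O2, 7 and 0 with DPI, and 8 and 0 with DPI + DNFB. Their median log2 change was -0.03, 0.07, 0.60 and 0.73 in that order. Cth, which makes cysteine from cystathionine, rose most with DPI (log2 2.43 ± 0.21) and also with DNFB (0.99 ± 0.21), H2O2 (1.43 ± 0.21) and DPI + DNFB (1.77 ± 0.21). The serine synthesis gene Phgdh was higher with DPI + DNFB than with DNFB (log2 1.70 ± 0.14). Of 11 amino acid transporters, 8 rose with DNFB, 8 with H2O2, 6 with DPI and 7 with DPI + DNFB, and 0, 1, 1 and 1 fell (median log2 change 0.62, 0.62, 0.27 and 0.53). The large neutral transporter subunit Slc7a5 rose by log2 1.26 ± 0.11, 1.19 ± 0.11, 1.14 ± 0.11 and 1.19 ± 0.11. The cystine carrier Slc7a11 rose with DNFB (log2 1.93 ± 0.26) and was lower with DPI + DNFB than with DNFB (log2 -2.26 ± 0.26). Of 13 tRNA charging and export genes 4, 5, 2 and 5 rose and 0, 1, 1 and 1 fell (median log2 change 0.11, 0.25, 0.08 and 0.24). The alanyl-tRNA synthetase Aars rose with DNFB (log2 0.96 ± 0.13), H2O2 (1.005 ± 0.13) and DPI + DNFB (0.94 ± 0.13).

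Among growth regulators and secreted targets, 8 tested, the translation repressor Eif4ebp1 rose under all treatments (log2 1.07 ± 0.11, 1.30 ± 0.11, 1.10 ± 0.11 and 1.99 ± 0.11 for DNFB, H2O2, DPI and DPI + DNFB). In this list 3, 2, 3 and 3 genes rose and 1, 2, 1 and 2 fell (median log2 change 0.32, 0.38, 0.52 and 0.13). Of 16 autophagy and cell death targets 9, 8, 8 and 6 rose and 1, 1, 0 and 2 fell (median log2 change 0.60, 0.48, 0.31 and 0.07). The BH3 death gene Bcl2l11 rose in each case (log2 1.80 ± 0.14, 1.63 ± 0.14, 1.97 ± 0.14 and 1.77 ± 0.14). The autophagy receptor Sqstm1 rose with DNFB (log2 2.31 ± 0.12) and was far lower with DPI + DNFB than with DNFB (log2 -2.54 ± 0.12). Its mean signal was 3549 without treatment, 17636 with DNFB and 3024 with DPI + DNFB. The autophagosome gene Gabarapl1 did likewise (log2 1.42 ± 0.11 and -1.42 ± 0.11), with 2437, 6529 and 2423. In the list, 1 gene was higher and 6 were lower with DPI + DNFB than with DNFB, where 44.2% of all tested genes passed. Of 20 ER chaperones and other targets of XBP1 or ATF6, 2 rose with DNFB, 2 with H2O2, 5 with DPI and 5 with DPI + DNFB, and 0, 3, 0 and 4 fell. These are 2, 5, 5 and 9 of 20, below the share of all genes with DNFB, slightly below it with H2O2 and DPI, and above it with DPI + DNFB. The co-chaperone Dnajb9 rose in all 4 (log2 0.82 ± 0.16, 1.36 ± 0.16, 2.50 ± 0.16 and 2.44 ± 0.16), whereas the list's median log2 change was -0.02, -0.09, 0.13 and -0.05. Of 12 other mTORC1 brakes 2 fell with DNFB, 5 with H2O2, 2 with DPI and 2 with DPI + DNFB, and at most 1 rose in each (median log2 change -0.17, -0.47, -0.14 and -0.07). Sesn1 fell with DNFB (log2 -1.22 ± 0.30) and H2O2 (log2 -1.74 ± 0.30), where its relative Sesn2 rose, and Deptor, a subunit that inhibits mTOR, fell with both (log2 -1.43 ± 0.17 and -1.65 ± 0.17).

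**Figure D4:**
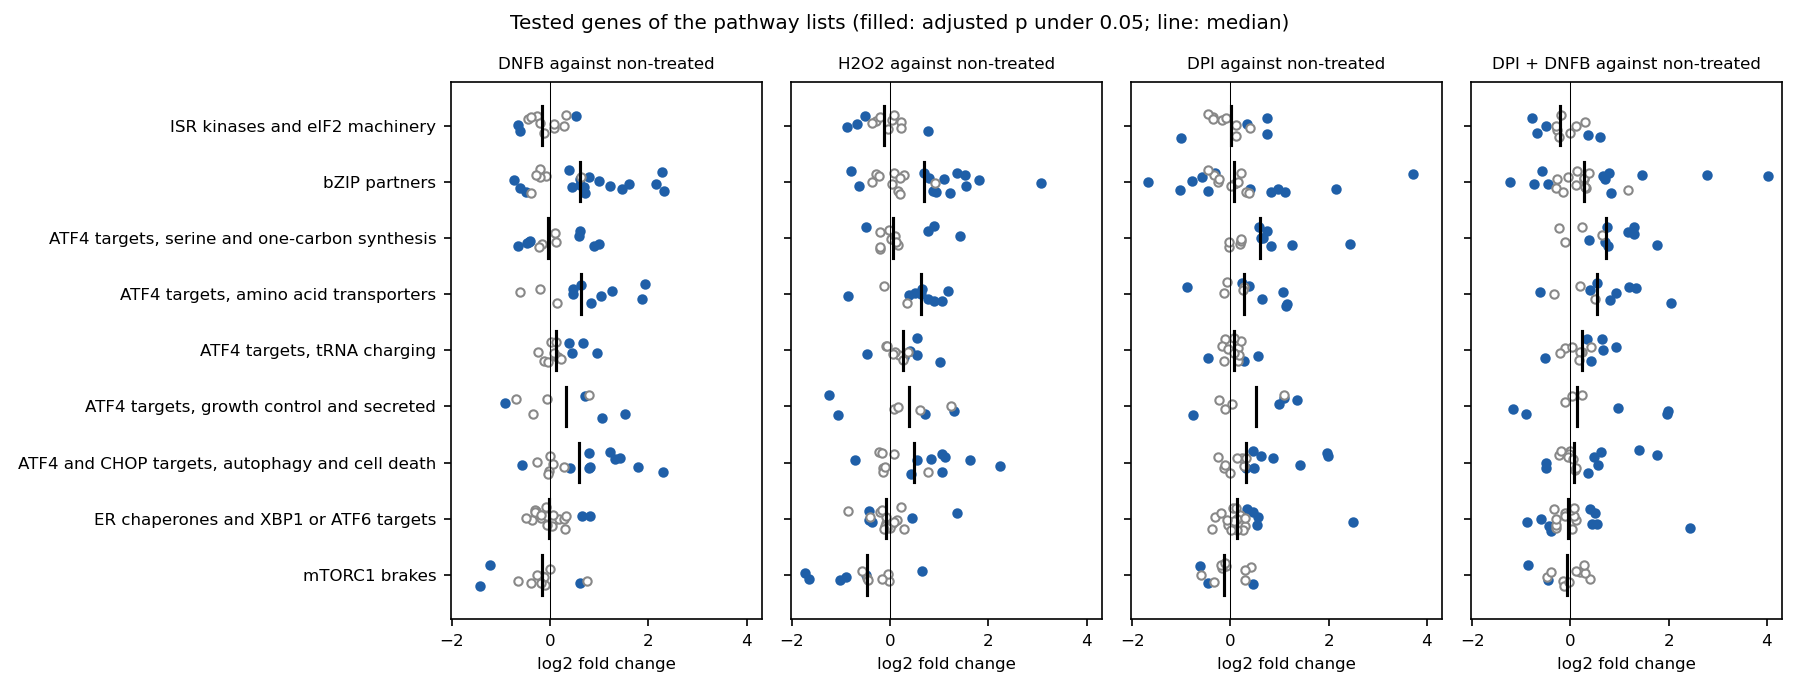
Log2 fold change (x axis) against non-treated cells of every tested gene in the 9 pathway lists (rows) under the 4 treatments (panels). Filled points passed, and the thick line is the list's median, which for the serine and one-carbon genes is -0.03 with DNFB and 0.60 with DPI.

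Likeness of pattern was measured as the root mean square difference of log2 signal over the 15 arrays after each gene's own mean was subtracted. A smaller value is closer in both direction and size of change, since the values were not scaled. A gene that moves the same way by another amount can thus stand farther off than one that hardly changes. The nearest to Atf4 were Rhbdf2 (0.199), Nfkbia (0.265) and Rgs1 (0.291), with a median of 0.832 over all genes. The nearest to Ddit3 were Nupr1 (0.449), itself one of the 10, Nr4a1 (0.483) and Eif4ebp1 (0.491), and Ppp1r15a was in place 5 with 0.509 (median 1.17). The nearest to Atf3 were Maff (0.382), Cxcl2 (0.490) and Zfand2a (0.579), and Ddit3 was in place 5 with 0.632 (median 1.44). The nearest to Trib3 were Cish (0.415), Cfap43 (0.420) and Bag3 (0.461), with Atf4 in place 47 at 0.641 (median 1.02). Ddit3 stood at 0.957 from Atf4, in place 9401, and Chac1 at 0.623, in place 1238. A place depends on the gene it is counted from. Counted from Atf4, Trib3 was in place 1492, and counted from Ddit3, Atf4 was in place 1132. Asns was in place 820 and Sesn2 in place 748 from Atf4.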

How the data were processed

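The deposited intensity values, 1 linear signal per probe set and array, were made by the authors with MAS5 in Affymetrix Expression Console per the submitters' processing notes, with versions and builds not given in the sources used here. Per the labels' protocols, TRIzol and RNeasy columns gave the RNA, which a 3' IVT kit turned into biotin-labelled cRNA. Each of 15 arrays was rescaled to a 2% trimmed mean of 500, and 15 was added before log2. Probe sets under the 40th percentile of mean log2 signal were left out. The probe set with the highest mean stood for its gene, and names were updated through RefSeq gene identifiers (34741 of 34945 matched). limma 3.58.1 in R 4.3.3 fitted group means to all arrays (lmFit, contrasts, eBayes with trend), with Benjamini-Hochberg adjustment over 12701 genes and 10 residual degrees of freedom. The steps were tested on simulated data. Named were all 10 members, up to 3 passing genes per pathway list and comparison, and the 3 genes closest in pattern to Atf4, Ddit3, Atf3 and Trib3. Members, lists and tests were chosen with earlier results of these data known. Group signals in the plots are geometric means. Alternatives covered pseudocount, filter, normalization, probe set choice, variance model, blocks, thresholds and each array left out. No columns were left unmapped.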

Additional observations from a re-analysis of the deposited data

Results flagged for a closer look

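The effect of DNFB on 3 of the 10 genes differed between cells with and without DPI, by the interaction term of the limma fit. That is near the share of all tested genes that passed, 31.1%. For Atf3 the effect with DPI minus the effect without it was log2 -1.54, for Asns -1.05 and for Chac1 -1.09. These are differences between folds and not between amounts of added signal. With DNFB the mean Atf3 signal went from 98.9 to 680 without DPI and from 621 to 1322 with it. The Asns value rests on 1 of its probe sets, the other giving -0.18, and Chac1 on DPI + DNFB arrays of which replicate 1 lay at 160.0 and the others at 340.1 and 341. When the beta-actin ratio entered the fit as a covariate, the interaction passed for Atf3 and Asns and not for Chac1 (log2 -0.83, adjusted p = 0.248), and the part of that ratio was not tested further.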

How the results depend on the processing

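Of 54 calls for the 10 genes in 8 comparisons, 38 held under all of 33 alternatives of normalization, filter, probe set, model or arrays used, 16 ended under at least 1, and 0 reversed. A further 10 differences that had not passed did so under at least 1. Over all 36 alternatives, 43 of 2880 values changed sign without passing before or after. The values as deposited, with unequal targets inside every group, ended 38 calls and moved the median log2 change of all genes by up to 0.31 in size. They left 1 gene with DNFB, 5 with H2O2, 2 with DPI and 3 for DPI + DNFB against DNFB. Of all 12701 genes, 210, 173, 212 and 828 passed in that order. By limma they left 0 for DPI + DNFB against DPI (6 at an unadjusted p under 0.05), 0 for DNFB against H2O2 (3) and 0 for the interaction (0). Beside these, 7, 26 and 137 of all genes passed. Of 40 neighbouring pairs of groups 1 passed, against 16 by the rescaled values. Centring arrays on the median, which moved the median of all genes by up to -0.30, gave 5 genes for the interaction, beside 3457 of all 12701. With the beta-actin ratio as a covariate 4 passed for DPI + DNFB against DPI. Within the arrays deposited at 500, 8 neighbouring pairs passed, and requiring a 2-fold change left 4 genes with DPI, 4 for DPI + DNFB against DNFB and 7 pairs. Leaving out each array in turn, 9 genes passed each time with DNFB, 9 to 10 with H2O2, 5 to 8 with DPI, 6 to 8 with DPI + DNFB, 6 to 7 for DPI + DNFB against DPI, 6 to 7 against DNFB, 4 to 5 for DNFB against H2O2, 2 to 4 for the interaction and 14 to 17 pairs. The cause of these shifts was not tested. Arrays of different groups with the same replicate number were more alike than those with other numbers. Their deviations from the group means correlated over genes at -0.003 to 0.144, median 0.074, above 0.1 in 9 of 30 pairs. For other numbers the range was -0.138 to 0.048, median -0.033, above 0.1 in 0 of 60. Deviations within a group sum to 0, so pairs with other numbers are not an independent reference for those with the same number. The main fit did not use the replicate number. With it as a block in limma the counts were 9, 10, 7, 8, 7, 7, 5 and 4, and 18 pairs, in the same order. Calls gained there were Sesn2 for the interaction (log2 -0.74, adjusted p = 0.0268) and Ddit4 for DPI + DNFB against non-treated (log2 -0.53, adjusted p = 0.0328). Ddit3 for DNFB against H2O2 was gained as well (log2 -0.56, adjusted p = 0.029). The fit with DPI + DNFB replicate 2 alone in its group was chosen after seeing the data.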
